A study of Mus musculus with 16 samples.

Results

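The genes of fatty acid oxidation and ketone use were followed in RNA from the heart ventricles of neonatal mice with or without a working Chrna7 gene, which encodes a nicotinic acetylcholine receptor subunit. They were 36 genes named by symbol, and all 36 were found among the 22468 genes of the deposited count table. All 36 also passed the filter on low counts that left 13412 genes for testing. They were grouped by their known step in the pathway, without use of their values. The 36 genes and the further gene lists used below were, however, chosen with earlier results of these data known.

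The 16 samples fell into 4 groups of 4. KO MI ventricles came from Chrna7 knockout neonates after MI, a myocardial infarction made by ligation, and KO sham ventricles from knockout neonates after sham surgery. WT MI and WT sham ventricles came from wild type (WT) neonates after the same operations. The mouse line is Jax stock 003232, a germline knockout, so the receptor is missing from every tissue and not from the heart alone. Each sample was the full ventricle, both above and below the ligation, so infarcted and remote muscle were read together. Litter, sex, age in days, time from surgery to harvest and pooling of animals are not given in the sources used here. The p-values therefore measure the spread between these samples.

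Fatty acids reach the heart muscle cell from lipoproteins and albumin, are joined to coenzyme A, and cross into mitochondria on carnitine. There, repeated rounds of beta-oxidation shorten them and pass electrons to the respiratory chain. The ventricle is known to turn from glucose towards fatty acid oxidation after birth, and it can also burn ketone bodies made by the liver.

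Gene counts per library ran between 10711442 and 17223580, and 3 counts corresponded to 0.179 to 0.290 CPM, the count scaled to the size of its library. Chrna7 itself had 0 to 4 counts in every library of every group, so it could not check the genotype labels. The sum of 4 Y-linked genes was 1.73 CPM in WT sham replicate 1, 2.13 in KO sham replicate 2 and 2.74 in KO MI replicate 1. It was 152 to 231 CPM in all other libraries, so no WT MI library was low. The first principal component held 25.5% of the variance and set the KO sham libraries apart from the other 12. Levels of all genes also followed transcript length in KO sham libraries, by 0.08 to 0.13 on the log2 scale per doubling of length, against -0.12 to 0.04 over all libraries of the other groups. On the fourth component, 3 libraries stood apart (KO MI replicate 4, WT MI replicate 2 and WT sham replicate 2), and the main counts are also given without them. KO MI replicate 4 had the lowest summed level of 15 cardiomyocyte markers, 72325 CPM, and the highest of 6 lung epithelium markers, 322 CPM.

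The genes covered a wide range of levels. Fabp3, the fatty acid binding protein of heart muscle, stood first with 6685 CPM per kilobase of transcript over the 16 samples. Acaa2, the last enzyme of the cycle (a thiolase), followed with 814 CPM per kilobase, then the long-chain and very-long-chain acyl-CoA dehydrogenases Acadl and Acadvl with 721 and 689, and Hadha of the trifunctional protein with 533. Of the 35 pairs of neighbours in this order, 32 had ranges over the 16 samples that overlapped, and Fabp3 from Acaa2, Ucp3 from Acsl4 and Acsl4 from Bdh1 were the 3 pairs apart. The lower end held Cpt1a with 24.3 CPM per kilobase, Angptl4 with 21.3, Ucp3 with 19.4, Acsl4 with 2.93 and Bdh1 with 0.399. The summed level of the 36 genes was 21792 ± 779 CPM in KO MI, 23516 ± 649 CPM in KO sham, 21339 ± 1537 CPM in WT MI and 22608 ± 1712 CPM in WT sham ventricles (SD, n = 4 each).

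**Figure D1:**
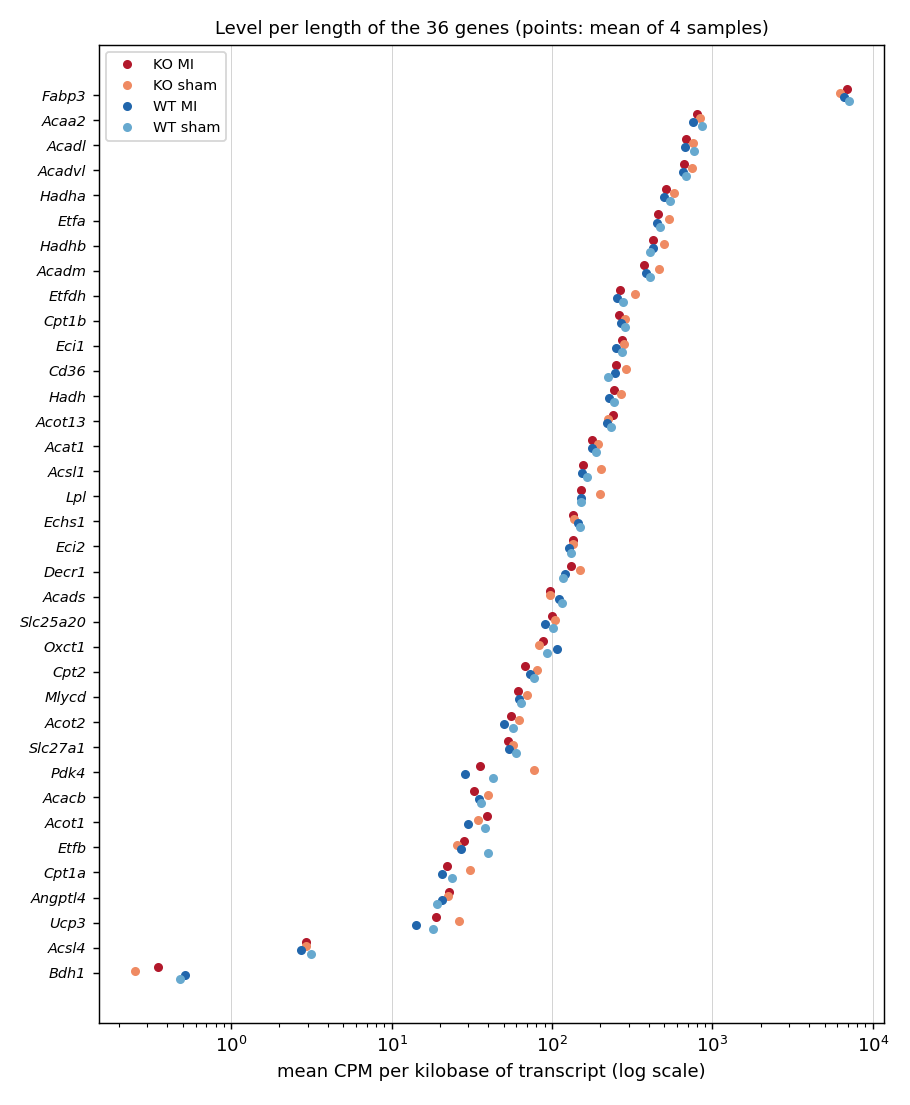
Mean level of each of the 36 genes, in CPM per kilobase of transcript on a log axis, with a point for the mean of the 4 samples of each group. Fabp3 lies far to the right at 6685 over all samples and Bdh1 at the far left at 0.399, and the KO sham point is the rightmost of the 4 for Pdk4, Ucp3, Cpt1a and Lpl.

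Knockout ventricles after sham surgery carried more mRNA of 8 of the 36 genes than wild type ventricles after sham surgery, and of none less. The 8 were Lpl, Acsl1, Cpt1a, Hadhb, Decr1, Etfdh, Pdk4 and Ucp3, with fold changes between 1.20 and 1.81. They made up 22.2% of the members, and 7.60% of all genes tested were called higher in the same comparison and 7.74% lower. A gene was called when edgeR's quasi-likelihood test gave a Benjamini-Hochberg adjusted p under 0.05 over the 13412 genes. The median log2 fold change of the 36 was 0.07, against -0.01 for all genes. At an unadjusted p under 0.05 there were 13 members, and 31.6% of all genes, so that share was near the background. DESeq2 called the same 8 higher and also Cd36 and Etfa, with 9.06% of all genes higher. It called 1 member lower, Etfb, with 8.48% of all genes lower. In bulk RNA, fewer cells of a type and less RNA per cell cannot be told apart.

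The number of higher members varied with the library left out. It was 4 without KO sham replicate 1 or without KO sham replicate 4, and 5 without KO sham replicate 2 or without WT sham replicate 1, 3 or 4. The share of all genes called in these fits is not given here, so these counts have no background. Lpl, Cpt1a and Pdk4 were called whichever of the 8 libraries was left out. Without the 3 libraries apart, 12 members were higher and 11.4% of all genes were. After trends with transcript length and GC content were removed from each library, 13 members and 1073 of all 13412 genes were higher, and the median of the members was 0.16.

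In knockout ventricles, infarction came with less mRNA of 7 of the 36 genes than sham surgery, and with more of none. The 7 were Lpl, Acsl1, Cpt1a, Acadm, Etfdh, Pdk4 and Ucp3, lower by 1.23 to 2.17 times. They were 19.4% of the members, and 8.02% of all genes tested were called lower and 8.54% higher. The median log2 fold change was -0.15, against 0.01 for all genes, and 27 of 36 had a negative sign, as did 48.8% of all genes. At an unadjusted p under 0.05 there were 11 members, and 31.4% of all genes, a share near the background. DESeq2 called the same 7 lower and also Hadha and Etfa, with 9.17% of all genes lower, and it called none higher. Without the 3 libraries apart, 10 members were lower and 15.4% of all genes were. With length and GC trends removed, 16 members and 1345 of all 13412 genes were lower, and higher genes were 40.7% of all called genes, against 51.6% without that correction.

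Lpl, Acsl1, Cpt1a, Etfdh, Pdk4 and Ucp3 were called in both comparisons. These share the 4 KO sham samples, and the mean of 22 of the 36 genes was highest in that group, as it was for 34.4% of all genes. The mean was highest in KO MI for 3 members (19.9% of all genes), in WT MI for 2 (20.2%) and in WT sham for 9 (25.5%). The mean of 19 members was lowest in WT MI ventricles and of 8 in KO MI ventricles. The share of all genes with the lowest mean in each group was not counted, so these counts have no background.

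In wild type ventricles, no member was called after infarction, higher or lower, while 1.32% of all genes were called higher and 0.932% lower. The median was -0.09, and 30 of 36 members had a negative sign, as did 52.3% of all genes. At an unadjusted p under 0.05 there were 6 members, and 15.0% of all genes, a share near the background. DESeq2 called 1 member, Pdk4. Between KO MI and WT MI ventricles no member was called, and 0.00746% of all genes were called in each direction. There, 4 members had an unadjusted p under 0.05, which 4.76% of all genes had, and DESeq2 called 0.

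The interaction, the infarction response in knockout minus that in wild type ventricles, was called for no member, with 1.65% of all genes called higher and 1.10% lower. It had an unadjusted p under 0.05 for 5 members and for 18.1% of all genes. DESeq2 called 1 member, Lpl. Without KO MI replicate 4, edgeR called Lpl, Cd36 and Pdk4 as more negative in the knockout, and it called the same 3 without the 3 libraries apart. In the fit without the 3 libraries, 5.87% of all genes were called lower and 4.84% higher. Without WT MI replicate 2 it called Acot1 as more positive. Higher genes were 60.1% of all called genes here, against 49.8% with length and GC trends removed.

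**Figure D2:**
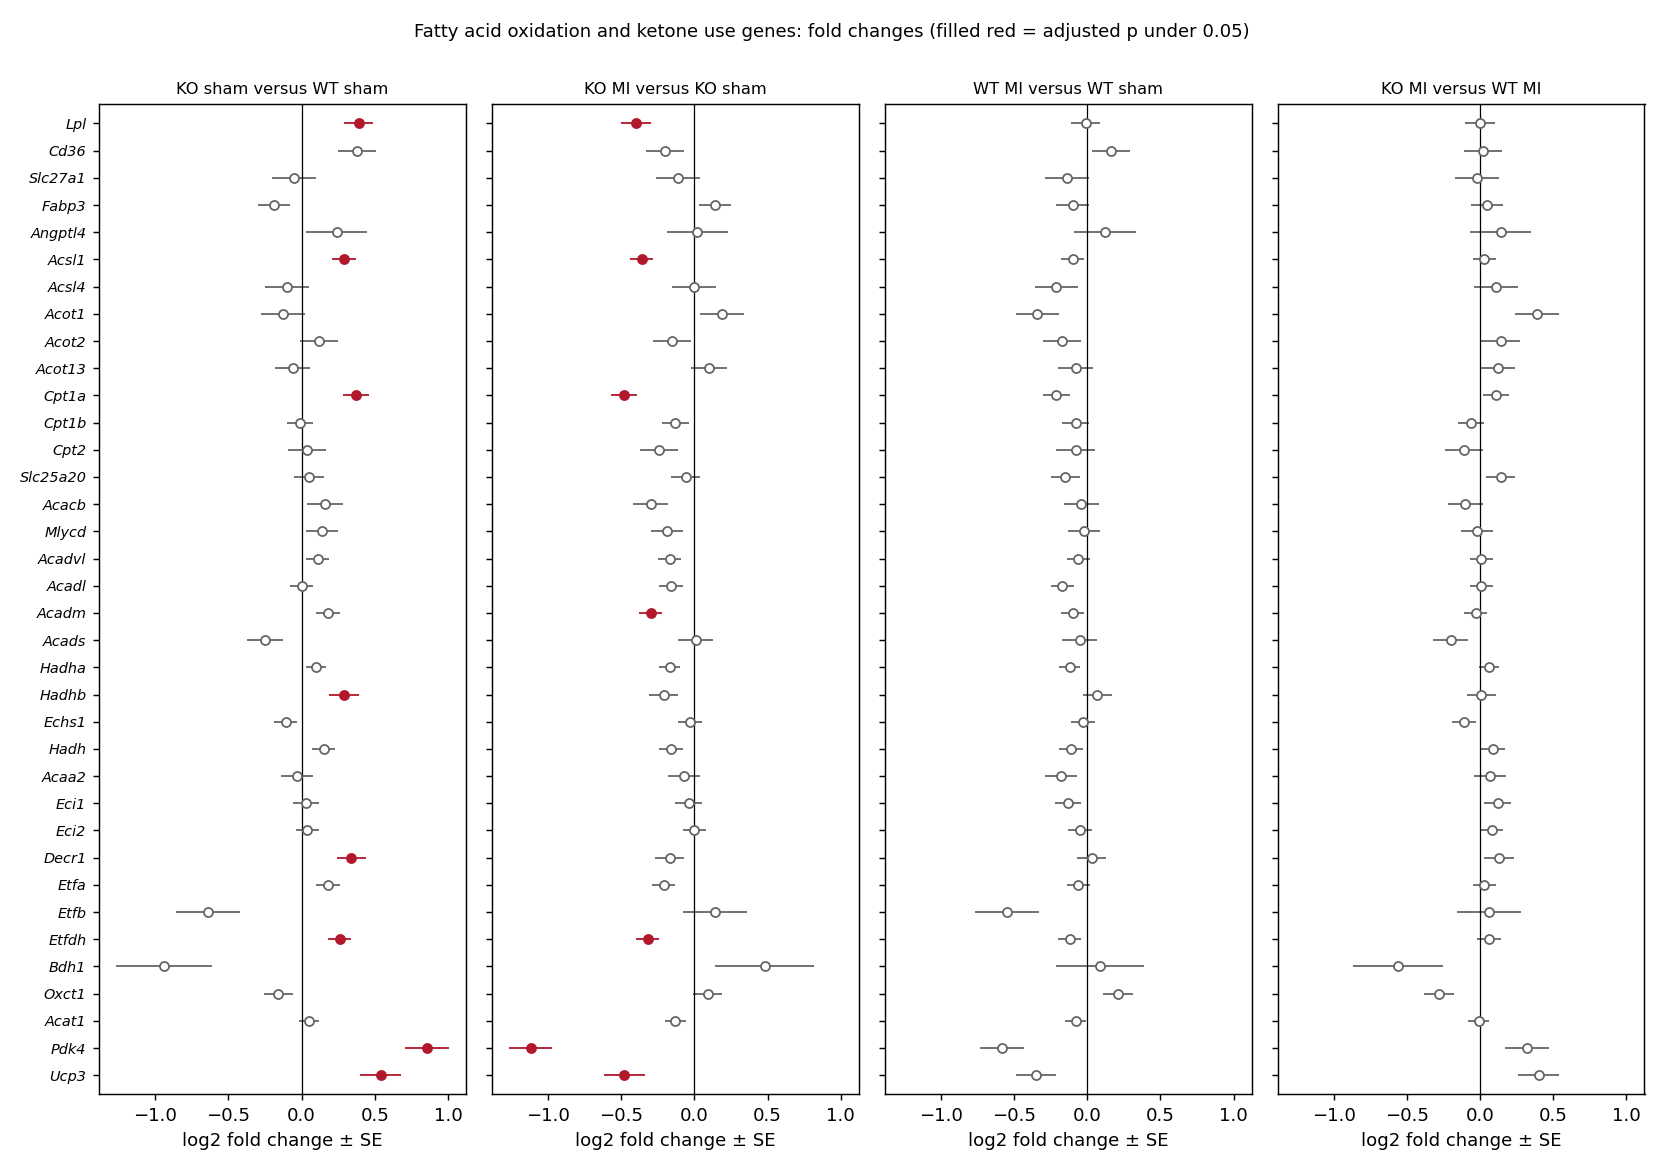
Log2 fold change (points) and its SE (bars) of the 36 genes in the 4 comparisons, with red points for an adjusted p under 0.05. Red points stand to the right of 0 for 8 genes in KO sham versus WT sham and to the left for 7 genes in KO MI versus KO sham, and there are none in the other panels.

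Markers of other cells moved in the same comparisons. Of 15 cardiomyocyte markers, 3 were lower in KO sham than in WT sham ventricles, against 7.74% of all genes. In KO MI, 5 were lower than in KO sham ventricles, against 8.02% of all genes. The summed level of the 15 markers was 72325 to 103067 CPM in KO MI, 100388 to 103637 in KO sham, 99582 to 107933 in WT MI and 106127 to 121732 in WT sham. Heart muscle markers were thus abundant in every sample. Of 8 endothelial markers, 3 were higher in KO sham than in WT sham, against 7.60% of all genes. The 8 summed to 1368 to 1814 CPM in KO MI, 1751 to 1845 in KO sham, 1548 to 1704 in WT MI and 1477 to 1649 in WT sham. Of 9 macrophage markers tested, 7 were higher in KO MI than in KO sham, against 8.54% of all genes. In WT MI, 4 were higher than in WT sham, against 1.32% of all genes. The sum over 10 listed macrophage markers was 252 to 514 CPM in KO MI, 183 to 201 in KO sham, 210 to 315 in WT MI and 144 to 170 in WT sham. All 7 erythroid markers were lower in KO sham than in WT sham, against 7.74% of all genes. In WT MI, 5 were lower than in WT sham, against 0.932% of all genes. In KO MI, 3 were higher than in KO sham, against 8.54% of all genes. The interaction was called higher for 5, against 1.65% of all genes. The 7 summed to 1124 to 1859 CPM in KO MI, 991 to 1407 in KO sham, 1711 to 2116 in WT MI and 2966 to 4731 in WT sham. The part of these cells in the changes of the fatty acid genes was not tested.

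Fat tissue also uses Lpl, Cd36 and Ucp3. The 10 adipocyte markers summed to 101 to 112 CPM in KO MI, 105 to 116 in KO sham, 94.2 to 154 in WT MI and 95.5 to 132 in WT sham, and Lep was at 0 in all 16 libraries. Most of each sum came from Lipe and Cidea, at 39.1 to 71.5 and 41.8 to 61.0 CPM over all libraries, and the more specific markers were low and uneven. Adipoq had 0.0685 to 0.209 CPM in KO MI, 0 to 0.130 in KO sham, 0 to 1.07 in WT MI and 0.193 to 1.82 in WT sham. Plin1 had 0 to 0.281 CPM in KO MI, 0 to 0.149 in KO sham, 0 to 1.81 in WT MI and 0.193 to 5.97 in WT sham. Of 4 adipocyte markers tested, 1 was higher and 1 lower in KO sham than in WT sham, with a median log2 fold change of -2.59. Of all genes, 7.60% were called higher and 7.74% lower there. Ucp1, the brown fat uncoupling protein, reached 1.05 CPM in KO MI, 1.37 CPM in KO sham, 19.5 CPM in WT MI and 32.3 CPM in WT sham libraries. The WT MI value was that of replicate 1, and the other WT MI libraries had at most 1.29 CPM. Ucp1 was at 0 in KO sham replicates 2 and 3, WT MI replicate 2 and WT sham replicate 4. The part of fat tissue in the changes was not tested.

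Pdk4 (ENSMUSG00000019577, chromosome 6) had the largest fold change of the called members in both comparisons with KO sham ventricles. Its product, a pyruvate dehydrogenase kinase, shuts off the entry of glucose carbon into the mitochondrial cycle, and the gene is a known target of PPAR nuclear receptors. Pdk4 had 120, 95.4, 112 and 170 CPM in KO MI, 235, 249, 243 and 351 CPM in KO sham, 101, 115, 90.0 and 92.1 CPM in WT MI, and 136, 166, 136 and 157 CPM in WT sham ventricles. All KO sham samples lay above all samples of the other groups, and all WT MI samples lay below all WT sham samples. KO sham exceeded WT sham by 0.86 ± 0.15 on the log2 scale (SE; 1.81-fold, edgeR adjusted p = 0.00125). KO MI was below KO sham by 2.17-fold (log2 fold change -1.12 ± 0.15, edgeR adjusted p = 2.40e-04).

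After infarction in wild type ventricles, Pdk4 averaged 99.4 ± 11.3 CPM in WT MI, against 149 ± 14.8 CPM in WT sham (SD, n = 4 each). The log2 difference of -0.58 ± 0.15 missed the threshold narrowly (edgeR adjusted p = 0.0527). It was past the threshold with DESeq2, with only the 8 samples compared in the fit, with length and GC trends removed, without the 3 libraries apart, and without WT MI replicate 2. Pdk4 was the only member with no overlap between WT MI and WT sham samples, and 3.71% of all genes lay wholly below in that comparison. KO MI differed from WT MI by 0.32 ± 0.15 with overlapping samples (edgeR adjusted p = 0.976), and the interaction was -0.53 ± 0.22 (edgeR adjusted p = 0.191).

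Ucp3 (ENSMUSG00000032942, chromosome 7), a carrier of the inner mitochondrial membrane found in muscle and brown fat, was also highest in KO sham ventricles. Ucp3 had 59.1, 32.8, 51.0 and 41.3 CPM in KO MI, 55.8, 71.2, 58.9 and 71.8 CPM in KO sham, 40.3, 32.3, 34.2 and 32.4 CPM in WT MI, and 39.0, 48.5, 42.9 and 46.5 CPM in WT sham ventricles. The KO sham samples were all above the WT sham samples, while KO MI replicate 1 reached into the KO sham range. Ucp3 was 1.46-fold higher in KO sham than in WT sham (log2 0.54 ± 0.14, edgeR adjusted p = 0.0144), a call lost without KO sham replicate 4. It was 1.40-fold lower in KO MI than in KO sham (log2 -0.48 ± 0.14, edgeR adjusted p = 0.0238). That second call ended without KO sham replicate 2, KO sham replicate 4 or KO MI replicate 2, and without the 3 libraries apart, where it was -0.43 (edgeR adjusted p = 0.0822). In KO MI against WT MI the log2 difference was 0.40 ± 0.14 (edgeR adjusted p = 0.897), and in WT MI against WT sham -0.35 ± 0.14 (edgeR adjusted p = 0.252).

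Cpt1a (ENSMUSG00000024900, chromosome 19) belongs to the carnitine shuttle, described further on, and was called in the same comparisons as Pdk4 and Ucp3. The start regions of these 3 genes are shown because, of the genes called in both comparisons with KO sham ventricles and present in the promoter table, they had the largest fold changes in each. They come from RefSeq on build GRCm38.p6, cover 250 bases before and 50 bases after the start, and run 5′ to 3′ along the gene. Capitals mark AGGTCA on either strand, the core that nuclear receptors such as the PPAR and ERR families read. Ucp3 lies at chr7:100472741-100473040 on the plus strand, Cpt1a at chr19:3323051-3323350 on the plus strand and Pdk4 at chr6:5496229-5496528 on the minus strand.
Ucp3: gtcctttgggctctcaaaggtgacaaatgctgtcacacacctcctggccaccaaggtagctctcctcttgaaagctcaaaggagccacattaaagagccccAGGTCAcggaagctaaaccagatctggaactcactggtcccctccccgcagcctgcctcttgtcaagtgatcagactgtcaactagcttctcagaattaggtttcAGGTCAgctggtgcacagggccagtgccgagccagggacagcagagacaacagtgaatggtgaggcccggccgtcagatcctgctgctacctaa
Cpt1a: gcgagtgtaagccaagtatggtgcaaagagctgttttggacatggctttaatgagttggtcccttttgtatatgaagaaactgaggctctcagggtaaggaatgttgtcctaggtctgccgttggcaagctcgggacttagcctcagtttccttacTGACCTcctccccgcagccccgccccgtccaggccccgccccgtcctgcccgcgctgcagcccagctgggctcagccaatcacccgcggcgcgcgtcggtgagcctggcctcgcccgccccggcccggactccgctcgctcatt
Pdk4: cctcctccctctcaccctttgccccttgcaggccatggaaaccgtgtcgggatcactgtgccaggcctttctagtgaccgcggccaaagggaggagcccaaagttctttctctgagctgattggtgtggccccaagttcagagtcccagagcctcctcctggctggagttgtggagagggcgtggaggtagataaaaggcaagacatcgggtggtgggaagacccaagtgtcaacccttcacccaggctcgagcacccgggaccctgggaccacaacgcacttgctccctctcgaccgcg
The Ucp3 window held AGGTCA on the gene's strand at -149 and -44 from the start, the Cpt1a window held it on the opposite strand at -94, and the Pdk4 window had no match. Of 29 members with a window in the table, 7 held AGGTCA (Acacb, Acadm, Acadvl, Cd36, Cpt1a, Echs1 and Ucp3), as did 16.3% of 32851 windows of the same length. Among the 7 called members with a window there were 3 (Acadm, Cpt1a and Ucp3), while Acsl1 and Etfdh, also called in both comparisons, had no match. The longer motifs TNAAGGTCA (the ERR element) and DR1 (AGGTCA repeated after a single base), which contain AGGTCA and were searched on both strands, were in no member's window. They were in 1.28% and 0.0396% of all windows. A match is a match of letters in this window only.

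Of the 5 genes of fatty acid uptake, Lpl was the only one called by edgeR with all 16 samples and no block or correction. Lpl (ENSMUSG00000015568, chromosome 8), lipoprotein lipase, frees fatty acids from circulating triglycerides at the capillary wall. Lpl had 569, 634, 534 and 747 CPM in KO MI, 845, 802, 773 and 847 CPM in KO sham, 544, 638, 646 and 654 CPM in WT MI, and 613, 661, 607 and 621 CPM in WT sham ventricles. The KO sham samples stood above every sample of the other groups. Lpl was 1.31-fold higher in KO sham than in WT sham (log2 0.39 ± 0.10, edgeR adjusted p = 0.0109) and 1.32-fold lower in KO MI than in KO sham (log2 -0.40 ± 0.10, edgeR adjusted p = 0.00949). Its mean was 621 ± 93.7 CPM in KO MI and 620 ± 51.5 CPM in WT MI (SD, n = 4 each), a log2 difference of 0.00 ± 0.10. The interaction of -0.38 ± 0.14 was not called (edgeR adjusted p = 0.133).

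Cd36, the fatty acid translocase of the cell surface, averaged 980 ± 83.4 CPM in KO sham and 756 ± 112 CPM in WT sham ventricles (SD, n = 4 each). The log2 difference of 0.38 ± 0.13 missed the threshold (edgeR adjusted p = 0.0571), and WT sham replicate 2 at 922 CPM lay within the KO sham range of 898 to 1071. Cd36 was called higher with DESeq2, with only the compared groups in the fit, with the replicate number as a block, without the 3 libraries apart and without WT sham replicate 2. It was called lower in KO MI than in KO sham without KO MI replicate 4 and without the 3 libraries apart. Fabp3 had 4897 to 5332 CPM in KO sham and 4726 to 7185 CPM in WT sham, a log2 difference of -0.19 ± 0.11 (edgeR adjusted p = 0.272). Fabp3 shares 19.6% of its exon bases with genes on the other strand, and the counting is not stated to use strand. Slc27a1, a fatty acid transport protein, and Angptl4, a secreted inhibitor of lipoprotein lipase, had log2 differences between -0.14 and 0.24 in the 4 pairwise comparisons, none called.

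Of the 5 genes that join fatty acids to coenzyme A or release them, only Acsl1 was called by edgeR with all 16 samples. Acsl1 (ENSMUSG00000018796, chromosome 8) encodes the main long-chain acyl-CoA synthetase of heart muscle. Acsl1 had 620, 649, 555 and 622 CPM in KO MI, 830, 740, 745 and 813 CPM in KO sham, 570, 639, 582 and 603 CPM in WT MI, and 615, 646, 637 and 667 CPM in WT sham ventricles. Every KO sham sample exceeded every other sample. Acsl1 was 1.22-fold higher in KO sham than in WT sham (log2 0.29 ± 0.08, edgeR adjusted p = 0.0160), a call lost without KO sham replicate 1 or 4. It was 1.28-fold lower in KO MI than in KO sham (log2 -0.36 ± 0.08, edgeR adjusted p = 0.00482). Acsl4, a synthetase that prefers arachidonic acid, stayed between 11.8 and 20.8 CPM in all 16 samples.

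The thioesterases Acot1 (cytosol) and Acot2 (mitochondria) release fatty acids from coenzyme A and lie side by side in the genome. Acot1 had 82.5, 97.4, 72.5 and 107 CPM in KO MI, 88.5, 84.6, 65.8 and 76.8 CPM in KO sham, 73.3, 89.4, 58.0 and 52.1 CPM in WT MI, and 75.0, 93.1, 85.0 and 93.7 CPM in WT sham ventricles. The groups overlapped in every comparison. The largest Acot1 log2 differences were 0.39 ± 0.15 in KO MI against WT MI (edgeR adjusted p = 0.970) and 0.53 ± 0.21 for the interaction (edgeR adjusted p = 0.184). Acot2 had 125, 143, 109 and 113 CPM in KO MI, 146, 133, 123 and 143 CPM in KO sham, 105, 145, 101 and 93.8 CPM in WT MI, and 104, 148, 122 and 128 CPM in WT sham. Acot2 groups overlapped too. The transcripts of the pair are 94.3% identical over 1330 aligned bases, and 23.7% of the 50-base windows of Acot1 also occur in Acot2, so reads could be lost from or shared between them. Acot13, another thioesterase, had log2 differences between -0.08 and 0.12, none called.

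Of the 4 genes of the carnitine shuttle, edgeR with all 16 samples and no correction called Cpt1a and not Cpt1b, Cpt2 or Slc25a20. Both Cpt1 genes encode the outer membrane step that commits long-chain fatty acids to oxidation, Cpt1b in adult heart and muscle and Cpt1a in liver and in the fetal heart. Cpt1a had 98.8, 96.8, 87.7 and 97.8 CPM in KO MI, 130, 130, 128 and 143 CPM in KO sham, 82.4, 78.6, 91.1 and 102 CPM in WT MI, and 99.8, 89.4, 107 and 114 CPM in WT sham ventricles. The 4 KO sham samples were above all others. Cpt1a was 1.30-fold higher in KO sham than in WT sham (log2 0.37 ± 0.09, edgeR adjusted p = 0.00937) and 1.39-fold lower in KO MI than in KO sham (log2 -0.48 ± 0.09, edgeR adjusted p = 0.00194). In WT MI against WT sham the log2 difference was -0.21 ± 0.09 (edgeR adjusted p = 0.262).

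Cpt1b averaged 754 ± 78.0 CPM in KO MI, 825 ± 17.5 in KO sham, 785 ± 75.7 in WT MI and 831 ± 83.3 in WT sham (SD, n = 4 each), and its log2 differences ran between -0.13 and -0.01. In the annotation, 81.4% of its exon bases also belong to a predicted gene on the same strand, so counts may be lost as ambiguous. Cpt1b made up 86.1 ± 0.486% of the counts of the pair in KO sham, against 88.9 ± 1.46% in WT sham. The difference of -2.81 points gave a two-sided exact permutation p of 0.0286, the smallest that 4 against 4 samples allow, and 0.0571 after adjustment over 4 comparisons. The share was 88.7 ± 1.29% in KO MI, a difference from KO sham of 2.57 points with the same exact p of 0.0286 and adjusted p of 0.0571. It was 89.8 ± 1.75% in WT MI. KO MI and WT MI differed by -1.08 points (exact permutation p = 0.371, adjusted 0.486) and WT MI and WT sham by 0.84 points (exact permutation p = 0.486, adjusted 0.486). Cpt2, the inner membrane transferase, and Slc25a20, the carnitine carrier, had log2 differences between -0.24 and 0.14, none called in that fit. All 4 Cpt2 values in KO MI lay below those in KO sham, and Cpt2 was called lower there with length and GC trends removed.

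Malonyl-CoA, the brake on the outer membrane step, is made at the mitochondrion by Acacb and removed by Mlycd. Acacb averaged 286 ± 62.6 CPM in KO MI, 351 ± 9.48 in KO sham, 307 ± 23.9 in WT MI and 315 ± 18.8 in WT sham (SD, n = 4 each). KO sham samples were all above WT sham samples (log2 0.16 ± 0.12, edgeR adjusted p = 0.389) and KO MI samples all below KO sham samples (log2 -0.30 ± 0.12, edgeR adjusted p = 0.0907), but neither was called with all 16 samples. Acacb was called lower in KO MI than in KO sham without KO MI replicate 1. KO MI replicate 4, at 193 CPM, was far below the other 3 of its group, at 309 to 331. Mlycd had log2 differences between -0.19 and 0.14, none called.

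The 4 acyl-CoA dehydrogenases take the first step of each round for chains of different length. Only the medium-chain enzyme Acadm was called by edgeR with all 16 samples and no correction, and in a single comparison. Acadm (ENSMUSG00000062908, chromosome 3) had 836, 705, 801 and 743 CPM in KO MI, 1006, 984, 924 and 889 CPM in KO sham, 752, 826, 805 and 760 CPM in WT MI, and 790, 906, 813 and 852 CPM in WT sham ventricles. The KO MI samples were all below the KO sham samples, and the sham groups overlapped. Acadm was 1.23-fold lower in KO MI than in KO sham (log2 -0.30 ± 0.08, edgeR adjusted p = 0.0154), a call lost without KO sham replicate 1 or without KO MI replicate 2. Its log2 difference between KO sham and WT sham was 0.18 ± 0.08 (edgeR adjusted p = 0.132). Acadm was called higher there with length and GC trends removed and without the 3 libraries apart. Acadvl and Acadl had KO MI samples wholly below KO sham samples, with log2 differences of -0.17 ± 0.08 and -0.16 ± 0.08 that were not called (edgeR adjusted p = 0.170 and 0.176). With length and GC trends removed, both were called lower there, and Acadvl was called higher in KO sham than in WT sham. Acadvl shares 42.9% of its exon bases with Dvl2 on the other strand. Acads, the short-chain enzyme, had its lowest log2 difference, -0.25 ± 0.12, in KO sham against WT sham (edgeR adjusted p = 0.172). Acads was called lower there without WT sham replicate 1.

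The next steps are carried by the trifunctional protein, made of Hadha and Hadhb, for long chains, and by Echs1, Hadh and Acaa2 for shorter ones. Hadhb (ENSMUSG00000059447, chromosome 5) had 879, 838, 877 and 919 CPM in KO MI, 1065, 1013, 982 and 1009 CPM in KO sham, 880, 1043, 798 and 765 CPM in WT MI, and 748, 977, 787 and 810 CPM in WT sham ventricles. All KO sham samples were above all WT sham samples, with the closest pair at 982 and 977 CPM. Hadhb was 1.23-fold higher in KO sham than in WT sham (log2 0.29 ± 0.10, edgeR adjusted p = 0.0492). This call sat at the threshold and was lost when any of 7 of the 8 libraries was left out, the exception being WT sham replicate 2. Its partner Hadha, in the same complex, had 2250 to 2422 CPM in KO sham and 2039 to 2274 in WT sham, a log2 difference of 0.10 ± 0.07 (edgeR adjusted p = 0.380). Hadha, Hadhb and Hadh had all KO MI samples below all KO sham samples, with log2 differences of -0.17, -0.21 and -0.16. None of these was called by edgeR with all 16 samples and no correction. DESeq2 called Hadha, and edgeR called Hadhb and Hadh with length and GC trends removed, and Hadhb also with only the compared groups in the fit and without the 3 libraries apart. Echs1 and Acaa2 differed by -0.18 to 0.07 on the log2 scale, and both were called lower in KO MI than in KO sham with length and GC trends removed. Hadh was called higher in KO sham than in WT sham with those trends removed and without the 3 libraries apart.

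Unsaturated fatty acids need the isomerases Eci1 and Eci2 and the dienoyl-CoA reductase Decr1. Decr1 (ENSMUSG00000028223, chromosome 4) had 376, 382, 370 and 437 CPM in KO MI, 459, 463, 435 and 405 CPM in KO sham, 340, 425, 338 and 323 CPM in WT MI, and 332, 400, 351 and 314 CPM in WT sham ventricles. KO sham samples lay above WT sham samples, the closest pair at 405 and 400 CPM. Decr1 was 1.26-fold higher in KO sham than in WT sham (log2 0.34 ± 0.10, edgeR adjusted p = 0.0251), a call lost without KO sham replicate 1 or 2 and without WT sham replicate 1, 3 or 4. KO MI against KO sham gave -0.17 ± 0.10 (edgeR adjusted p = 0.234), and Decr1 was called lower there without the 3 libraries apart. Eci1 and Eci2 had log2 differences between -0.13 and 0.12, none called by edgeR with all 16 samples and no correction. With length and GC trends removed, Eci1 was called higher in KO sham than in WT sham and lower in KO MI than in KO sham.

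Electrons from the dehydrogenases pass to the flavoprotein made of Etfa and Etfb, and from it through Etfdh to ubiquinone. Etfdh (ENSMUSG00000027809, chromosome 3) had 626, 594, 608 and 694 CPM in KO MI, 830, 764, 742 and 804 CPM in KO sham, 584, 657, 596 and 580 CPM in WT MI, and 617, 704, 663 and 638 CPM in WT sham ventricles. The KO sham samples were above all others. Etfdh was 1.20-fold higher in KO sham than in WT sham (log2 0.26 ± 0.08, edgeR adjusted p = 0.0310), a call lost without KO sham replicate 1, 2 or 4 and without WT sham replicate 1, 3 or 4. It was 1.25-fold lower in KO MI than in KO sham (log2 -0.32 ± 0.08, edgeR adjusted p = 0.0111). Etfa was not called by edgeR with all 16 samples and no correction. It averaged 642 ± 30.4 CPM in KO MI and 743 ± 36.1 CPM in KO sham (SD, n = 4 each), a log2 difference of -0.21 ± 0.08 (edgeR adjusted p = 0.0625), and 655 ± 45.2 CPM in WT sham, from which KO sham differed by 0.18 ± 0.08 (edgeR adjusted p = 0.106). Both differences were called with DESeq2, with length and GC trends removed and without the 3 libraries apart.

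Etfb, the partner subunit, was read at only 20.1 to 49.9 CPM. In the annotation 58.2% of its exon bases also belong to other genes on the same strand, so its level is uncertain. The WT sham samples split into 20.1 and 24.1 CPM for replicates 1 and 2 and 49.9 and 49.0 CPM for replicates 3 and 4, while the 12 other samples ranged between 20.2 and 28.1. The log2 difference between KO sham and WT sham, -0.64 ± 0.22 (edgeR adjusted p = 0.0606), set KO sham values of 20.2 to 25.1 CPM against these split values.

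The 3 genes of ketone use were called in no comparison with all 16 samples, by edgeR or by DESeq2, and 1 of them had an unadjusted p under 0.05 in KO sham against WT sham and 1 in KO MI against WT MI. Oxct1, the transferase that lets the heart use ketone bodies, averaged 311 ± 33.1 CPM in KO MI, 293 ± 21.5 in KO sham, 379 ± 50.5 in WT MI and 328 ± 27.0 in WT sham (SD, n = 4 each). Its log2 differences were -0.28 ± 0.10 in KO MI against WT MI (edgeR adjusted p = 0.929) and 0.21 ± 0.10 in WT MI against WT sham (edgeR adjusted p = 0.345). Acat1, the mitochondrial thiolase that splits acetoacetyl-CoA, had log2 differences between -0.13 and 0.05. Bdh1, which converts hydroxybutyrate to acetoacetate, was nearly absent at 0.441 to 2.18 CPM, and its log2 difference of -0.94 ± 0.33 in KO sham against WT sham missed the threshold (edgeR adjusted p = 0.0580). Bdh1 was called lower there with only the compared groups in the fit, without KO sham replicate 3 and without WT sham replicate 4.

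**Figure D3:**
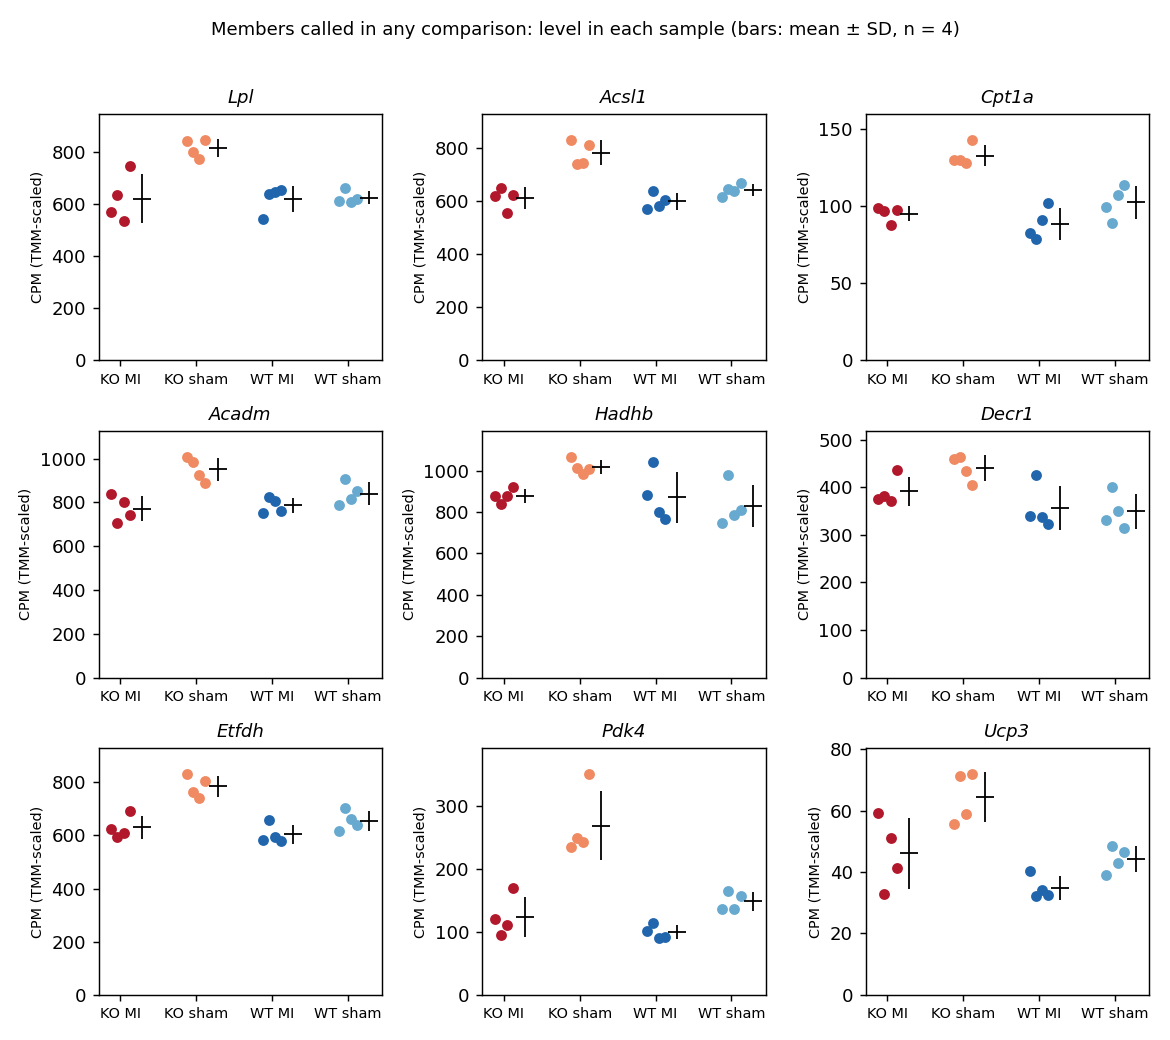
CPM of the 9 called genes in each sample, with a point for each sample and a cross and bar for the mean and SD of each group (n = 4). KO sham samples are above the WT sham samples for every gene shown but Acadm, and for Pdk4, at 235 to 351 CPM, they stand clear of all others.

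Across the 36 genes, all 4 KO sham samples lay above all 4 WT sham samples for 10 members, a pattern found in 14.0% of all genes. None lay wholly below, as 12.3% of all genes did. All 4 KO MI samples lay below all 4 KO sham samples for 15 members, against 12.5% of all genes, and none lay wholly above, against 11.4%. No member had its WT MI samples wholly above its WT sham samples, against 4.50% of all genes. None separated KO MI from WT MI samples, against 1.09% of all genes wholly above and 1.02% wholly below.

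Genes around the pathway were taken from 5 lists with 90 genes in all, of which 88 were tested. In KO sham against WT sham, 8 were higher and 3 lower, or 9.09% and 3.41%, against 7.60% and 7.74% of all genes, so the higher share was near the background. In KO MI against KO sham, 6 were higher and 18 lower, or 6.82% and 20.5%, against 8.54% and 8.02% of all genes. Without the 3 libraries apart, KO sham against WT sham gave 15 higher and 7 lower, with 11.4% and 10.4% of all genes called. KO MI against KO sham then gave 8 higher and 31 lower, with 14.2% and 15.4% of all genes called. In WT MI against WT sham, 1 was higher and 1 lower, and between KO MI and WT MI none was called, with 5 at an unadjusted p under 0.05.

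Among 20 regulators, 3 (15.0%) were higher in KO sham than in WT sham, against 7.60% of all genes. In KO MI, 8 (40.0%) were lower than in KO sham, against 8.02% of all genes. Ppargc1b, a coactivator of oxidative metabolism, averaged 33.3 ± 1.98 CPM in KO MI, 59.9 ± 4.78 CPM in KO sham and 42.9 ± 7.12 CPM in WT sham (SD, n = 4 each). It was 1.40-fold higher in KO sham than in WT sham (edgeR adjusted p = 0.00634) and 1.80-fold lower in KO MI than in KO sham (edgeR adjusted p = 1.40e-04). Rxra, the partner of PPAR receptors on DNA, did the same by 1.33-fold (edgeR adjusted p = 0.00741) and 1.39-fold (edgeR adjusted p = 0.00308). Both kept their calls whichever library of the comparison was left out. Nrip1, a corepressor of oxidative genes, was 1.57-fold higher in KO sham than in WT sham (edgeR adjusted p = 0.0391), a call lost in 6 of 8 fits with a library left out. Mef2a, a muscle transcription factor, and Prkaa2, a catalytic subunit of AMP-activated kinase, were 1.51-fold and 1.79-fold lower in KO MI than in KO sham (edgeR adjusted p = 0.0142 and 0.0177), losing the call in 1 and 3 of 8 such fits.

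In wild type ventricles the regulator called lower after infarction was Ppargc1a, the coactivator known for driving mitochondrial genes. It averaged 43.4 ± 8.36 CPM in WT MI and 90.5 ± 15.2 CPM in WT sham (SD, n = 4 each), 2.09-fold lower (edgeR adjusted p = 0.01000), a call lost without WT MI replicate 1. In the knockout it averaged 58.3 ± 22.8 CPM in KO MI and 75.8 ± 2.42 CPM in KO sham (edgeR adjusted p = 0.196), and the interaction of 0.68 ± 0.28 was not called (edgeR adjusted p = 0.203). Pparg, better known from fat cells, was 1.43-fold higher in WT MI than in WT sham (edgeR adjusted p = 0.0462), a call lost in 7 of 8 fits with a library left out. Ppara, the main PPAR of heart muscle and chosen here after its values were seen, had log2 differences of -0.48 ± 0.17 in KO MI against KO sham (edgeR adjusted p = 0.0516) and -0.62 ± 0.17 in WT MI against WT sham (edgeR adjusted p = 0.0648).

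**Figure D4:**
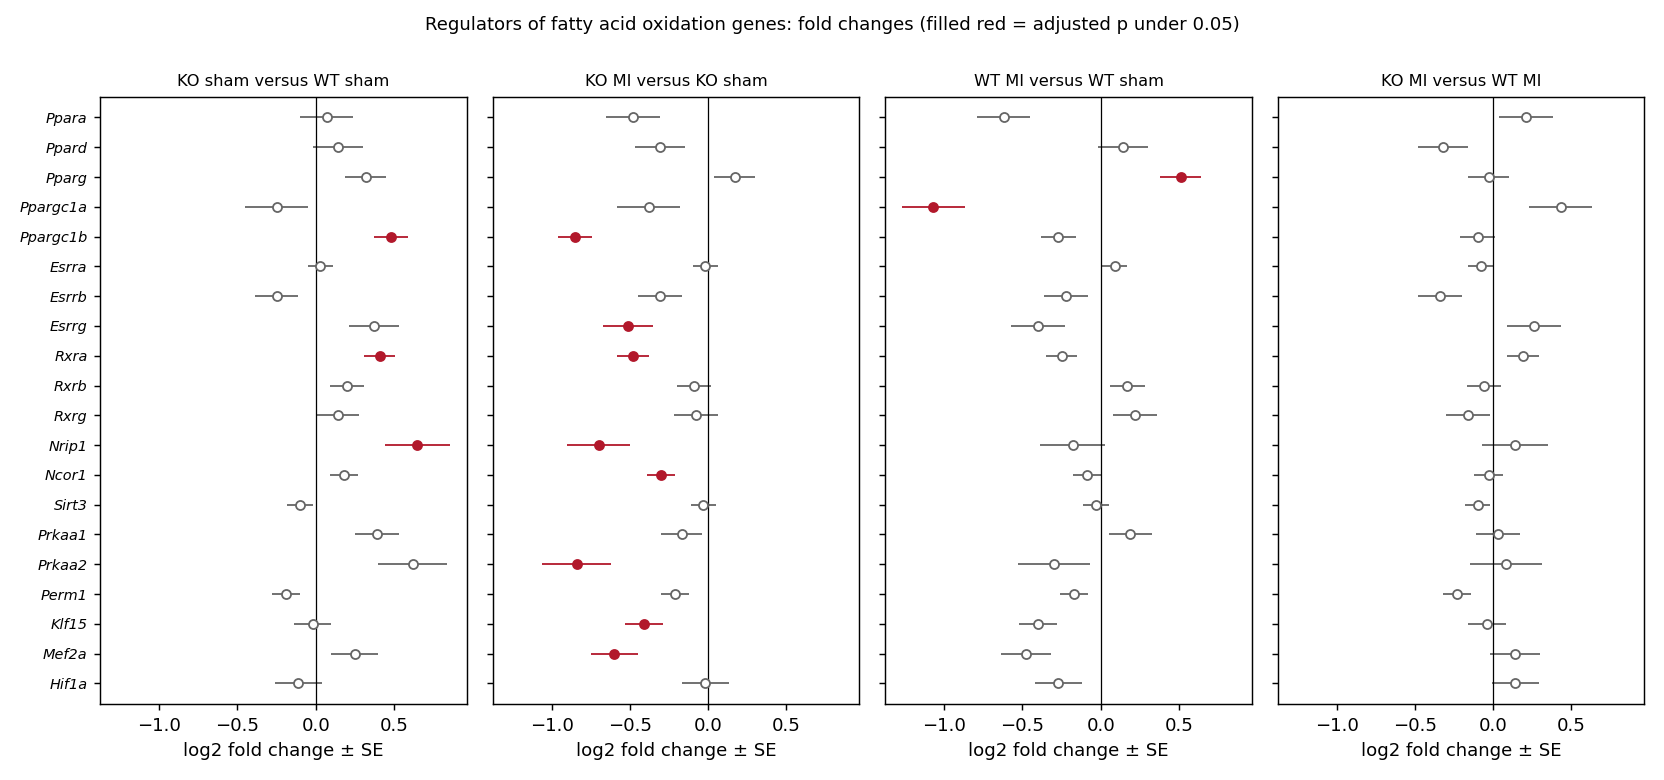
Log2 fold change (points) and SE (bars) of the 20 listed regulators in the 4 comparisons, with red points for an adjusted p under 0.05. There are 3 red points to the right in KO sham versus WT sham, 8 to the left in KO MI versus KO sham, and in WT MI versus WT sham Ppargc1a stands at -1.07 and Pparg at 0.51.

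Among 15 genes of peroxisomes, which shorten very long chains, Crot, a carnitine acyltransferase, was 1.24-fold higher in KO sham than in WT sham (edgeR adjusted p = 0.0380), a call lost in 6 of 8 fits with a library left out. Abcd3, a peroxisomal fatty acid transporter, was 1.23-fold lower in KO MI than in KO sham (edgeR adjusted p = 0.0227), lost in 5 of 8. Of 5 further ketone genes tested, the monocarboxylate carrier Slc16a1 was 1.32-fold lower (edgeR adjusted p = 0.0190) and the cytosolic synthetase Aacs 1.37-fold higher (edgeR adjusted p = 0.0341) in KO MI than in KO sham, lost in 4 and 6 of 8. Of 20 genes of the citric acid cycle and pyruvate entry, Dlat alone was higher in KO sham than in WT sham, by 1.22-fold (edgeR adjusted p = 0.0274), lost in 5 of 8. In KO MI, 5 of these 20 (25.0%) were lower than in KO sham, against 8.02% of all genes. They were led by Dlat at 1.31-fold (edgeR adjusted p = 0.00487), citrate synthase Cs at 1.24-fold (edgeR adjusted p = 0.0151), Pdha1 at 1.27-fold (edgeR adjusted p = 0.0176) and Sdha at 1.20-fold (edgeR adjusted p = 0.0223). Dlat and Cs kept that call in all 8 such fits.

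Among 28 other genes of fatty acid and acetate handling, directions were mixed. Acss1, a mitochondrial acetate-activating enzyme, was 1.35-fold higher in KO sham than in WT sham (edgeR adjusted p = 0.00205) and 1.39-fold lower in KO MI than in KO sham (edgeR adjusted p = 0.00129). Ucp2, an uncoupling protein relative abundant in macrophages as well, was 1.59-fold higher in KO sham than in WT sham (edgeR adjusted p = 0.00627). Fabp5, a fatty acid binding protein of endothelium, fat and macrophages, went the other way, 1.59-fold lower in KO sham than in WT sham (edgeR adjusted p = 0.00121) and 1.59-fold higher in KO MI than in KO sham (edgeR adjusted p = 0.00158). Pdk3, a kinase of the same family as Pdk4, was 1.62-fold lower in KO sham (edgeR adjusted p = 0.00195) and 1.58-fold higher in KO MI than in KO sham (edgeR adjusted p = 0.00310). Acsl5, a synthetase like Acsl1, was 1.33-fold higher in KO MI than in KO sham (edgeR adjusted p = 0.00649). The interaction was called for Acss1 (log2 -0.59 ± 0.12, edgeR adjusted p = 0.0107), Fabp5 (0.82 ± 0.17, edgeR adjusted p = 0.0132) and Pdk3 (0.77 ± 0.19, edgeR adjusted p = 0.0297), the last lost in 10 of 16 fits with a library left out.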

How the data were processed

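Poly(A) RNA libraries of the 16 ventricles were counted per gene, and the authors deposited raw read counts for 22468 genes. HISAT2 2.2.1, HTSeq 0.13.5, cutadapt 3.4 and build GRCm39 are named in the submitters' processing notes, and whether strand was used is not given in the sources used here. Per library, reads in no gene came to 23.7 to 28.2% and ambiguous reads to 1.56 to 2.08% of the table's total, and both stayed out of library sizes and tests.

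Counts were tested with edgeR 4.0.16 in R 4.3.3: TMM scaling, filterByExpr, a robust quasi-likelihood fit with a mean for each of the 4 groups and 12 residual degrees of freedom, and Benjamini-Hochberg adjustment over 13412 genes. Levels are CPM on TMM-scaled library sizes, and SEs are the log2 fold change divided by the root of F. Transcript lengths, GC content and overlaps came from GENCODE M21 on GRCm38, a different build from the counts, so they were used by gene ID only. Lengths and GC content were found for all 36 members.

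The members and all lists were chosen with earlier results of these data known. Sample values are given for called members and for Acot1 and Acot2, and of each further list up to 4 called genes with the smallest p per comparison are named, except a peroxisomal result that is not reported here. The alternatives were DESeq2 1.42.0, other scalings, no filter on low counts, fewer samples in the fit, a replicate block, a Y-linked index, length and GC trends (mgcv 1.9.3), each library left out in turn, and, added after seeing the data, the 3 libraries apart left out and all of these for the further lists.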

Additional observations from a re-analysis of the deposited data

Results flagged for a closer look

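In 13 of 144 sets of 4 samples (36 genes in 4 groups), the highest or lowest sample was farther from the other 3 than Dixon's critical value at the 95% level allows. Chance does this in about 1 set in 20. No explanation was tested.

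KO MI replicate 4 accounted for 4 of them. It had 223 CPM of Acot13, against 154 to 163 in the other 3 KO MI samples, and 263 CPM of Eci2, against 228 to 230. It was low for Acacb, at 193 CPM against 309 to 331, and for Acadvl, at 1309 CPM against 1473 to 1488.

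WT MI replicate 2 was high for 3 genes: Acadl at 1432 CPM, against 1233 to 1267 in the others, Hadh at 465, against 383 to 390, and Decr1 at 425, against 323 to 340. WT MI replicate 1 was low for Lpl, at 544 CPM against 638 to 654.

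KO sham replicate 4 was high for both genes in which it stood apart, Pdk4 at 351 CPM, against 235 to 249, and Cpt1a at 143 CPM, against 128 to 130. Both genes were still called in both KO sham comparisons without it. Among WT sham samples, Cd36 was high in replicate 2 at 922 CPM, against 683 to 714, Acadvl was low in replicate 1 at 1397, against 1522 to 1530, and Etfa was low in replicate 4 at 587, against 673 to 682.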

How the results depend on the processing

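No direction of a called member turned under any alternative. In KO sham against WT sham, 8 members were higher. Leaving out a library gave 4 to 9, and 13 were higher with length and GC trends removed, where the median of 0.07 was 0.16. No member was lower there, but 1 was with DESeq2 (Etfb) and 1 with only the compared groups in the fit (Bdh1), and 0 to 2 were with a library left out. In KO MI against KO sham, 7 were lower, 16 with length and GC trends removed, and 5 to 9 with a library left out. In WT MI against WT sham none was lower, but 1 (Pdk4) was with DESeq2, with only the compared groups, with the replicate block, with length and GC trends removed and without the 3 libraries apart, and 0 to 1 were with a library left out. For the interaction, none was lower, but 1 was with DESeq2 (Lpl) and 3 without the 3 libraries apart. Of all genes, 2.22% were lower with DESeq2 and 5.87% without the 3 libraries apart. With a library left out, 0 to 3 members were lower and 0 to 1 higher. For no comparison is the share of all genes called with a library left out given here, so those counts have no background. Hadhb also lost its call with upper quartile scaling, without the filter and with the Y-linked index, and Ucp3 in KO MI against KO sham with only the compared groups in the fit. The cause was not tested. With the replicate block, 9 members were higher in KO sham against WT sham and 7 lower in KO MI against KO sham. Of all genes, 8.64% were then higher and 9.23% lower in these comparisons. No label says that the numbers pair samples, and deviations of same-numbered samples correlated between -0.0968 and 0.475 (median 0.011, 24 pairs). Those of samples with different numbers correlated between -0.326 and 0.210 (median -0.00631, 72 pairs), so the highest same-number value lay above that range. Whether any samples were paired was not tested.

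Among the further lists, KO sham against WT sham gave 8 higher genes, but 16 with DESeq2 and 17 with only the compared groups. Of all genes, 7.60% were higher there, against 9.06% with DESeq2 and 12.9% with only the compared groups. KO MI against KO sham gave 18 lower genes of these lists, but 31 with length and GC trends removed. Of all 13412 genes, 1075 were lower there, against 1345 with those trends removed. Calls over all genes thus rose under each of these settings too. Depth limited Bdh1 most, at 0.441 to 2.18 CPM where 3 counts are 0.179 to 0.290 CPM.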
